A study of Mus musculus with 8 samples.

Results

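Genes for 10 proteins that the liver secretes into plasma were followed in p53 null embryonic kidneys of the mouse. They were listed by symbol, with earlier results of these arrays known: Afp, Alb, Ahsg, Fga, Fgb, Fgg, Trf, Apoa1, Apoa2 and Ttr. Of the 17305 named genes on the array they make up 10, and each had 1 probe, matched through its RefSeq accession. Because the choice was made with their null over wild-type values known, those values are described below without a test.

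The arrays set p53 null against p53 wild-type kidney, both of strain C57BL/6 and both at embryonic day 15.5. Each of the 8 arrays with 2 colours carried null RNA in one dye and wild-type RNA in the other. Replicate 1 had 4 arrays, and replicates 2 and 3 had 2 arrays each, with the null RNA in Cy5 on 4 arrays and in Cy3 on the other 4. The labels call the 3 replicates biological; the number of embryos behind each RNA, their sex, and the deleted part of the p53 gene are not given in the sources used here. File headers put all arrays of replicate 1 on slide 1 (scan 1). Those of the other replicates were on slide 2 (scan 2), so that slide and replicate 1 cannot be told apart.

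Hepatocytes make most of the soluble proteins of plasma, and the yolk sac endoderm makes many of them in the embryo. Albumin (Alb) and alpha-fetoprotein (Afp) are related carrier proteins encoded side by side, and Afp is the form typical of fetal life that is switched off after birth. The promoters of this group are classic targets of HNF1 factors, which act in hepatocytes and also in kidney tubules. In hepatoma cells and liver, p53 has been described as a repressor of Afp.

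The promoters of the genes show what they share beside their secreted products. RefSeq entries of the GRCm38.p6 build covered 8 of the 10 genes, leaving Trf and Ttr without one. The motif searched for HNF1 was its half-site GTTAAT, then any base, then the reverse complement of the half-site, with at most 2 mismatches, on both strands, in the 250 bases before the start. It matched in Afp, Alb, Fga and Fgb and in 1.24% of all 32841 promoters of the table (407), and these letters were not found in the window of Fgg, Apoa1, Apoa2 or Ahsg. The last 120 bases before the start are printed for the 4 genes with a match, because they include Afp, which had the largest ratios of the group on slide 2. Capitals mark the HNF1 matches and, in Afp, a TATAAA on the sense strand, a motif held by 7.59% of the promoters.
Afp promoter, chr5:90490594-90490713, plus strand: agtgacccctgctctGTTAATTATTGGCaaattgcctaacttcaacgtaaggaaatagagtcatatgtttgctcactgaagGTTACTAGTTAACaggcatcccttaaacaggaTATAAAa
Alb promoter, chr5:90460750-90460869, plus strand: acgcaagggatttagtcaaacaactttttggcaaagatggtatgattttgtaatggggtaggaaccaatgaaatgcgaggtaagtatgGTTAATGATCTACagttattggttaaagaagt
Fga promoter, chr3:83026033-83026152, plus strand: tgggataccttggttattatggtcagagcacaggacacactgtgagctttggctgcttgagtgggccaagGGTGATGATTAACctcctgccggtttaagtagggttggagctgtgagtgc
Fgb promoter, chr3:83049864-83049983, minus strand: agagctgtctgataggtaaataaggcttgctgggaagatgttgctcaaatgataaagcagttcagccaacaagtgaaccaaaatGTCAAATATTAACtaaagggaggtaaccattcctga

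The match in Alb ran from base −32 to −20 and that in Fgb from −36 to −24, counted back from the start. Afp had 2 matches, at −105 to −93 and at −39 to −27, and the match in Fga lay at −50 to −38. All of them had 2 mismatches. A C/EBP motif, TTGCNNAA on either strand, was found in Afp, Alb, Fga, Fgb, Ahsg and Apoa2 and in 9.57% of all promoters. In the same annotation Alb and Afp were 14.1 kb apart, Fgg and Fga 11.1 kb and Fga and Fgb 8.62 kb. A motif match describes letters only.

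Trp53 itself had a log2 ratio of null over wild type of −0.67 ± 0.36 (SD, n = 3 replicates) on a probe spotted 10 times, negative on all 8 arrays (limma, adjusted p = 0.279), and 0.16 ± 0.13 on the other probe (adjusted p = 0.387). Whether either probe lies in the deleted part is not given, so the probes check the labels only in part. Of 41174 probes, between 20613 and 24847 were above background in null RNA and between 19320 and 25706 in wild-type RNA. On slide 1 the counts were 23589 to 24847 in null and 24718 to 25706 in wild-type RNA. On slide 2 they were 20613 to 21172 and 19320 to 19769. Fewer probes were thus above background on slide 2 in both genotypes, which applies to every detection count by slide below. The limma fit called 0 of 20864 tested probes (0%) at an adjusted p under 0.05, and 3583 (17.2%) at an unadjusted p under 0.05. Without replicate 1 the same fit called 11695 probes. Replicates 2 and 3 correlated at r = 0.93 over the tested probes, whereas replicate 1 correlated with them at 0.06 and −0.15. The wild-type levels of replicates 2 and 3 differed by an SD of 0.137 (Cy3) and 0.141 (Cy5) on the log2 scale. Repeat arrays of the wild-type RNA of replicate 1 differed by 0.175 and 0.150, no less than wild-type RNA did between replicates 2 and 3. For null RNA, replicates 2 and 3 differed by 0.183 and 0.198 and repeat arrays of replicate 1 by 0.186 and 0.135, so within a slide this SD separates different RNAs poorly. Wild-type levels of replicates 1 and 2 differed by 0.808 (Cy3) and 0.846 (Cy5), where slide and RNA cannot be told apart. Whether replicates 2 and 3 shared a wild-type RNA, which would make their ratios dependent, was not tested, and the labels do not say. Kidney genes were found in both genotypes: Pax2, Six2, Wt1 and Cdh16 exceeded background on 8 of 8 arrays in each genotype.

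Afp had the largest ratios of the group on slide 2, and its ratio had opposite signs on the 2 slides. On the arrays of replicate 1 the log2 ratios were −0.30 and −0.38 with null in Cy5, and −0.50 and −0.49 with null in Cy3. Replicate 2 gave 1.98 (null in Cy5) and 1.68 (null in Cy3), and replicate 3 gave 1.86 and 1.51. Thus all 4 arrays of slide 1 had less Afp signal in null than in wild-type kidney, and all 4 arrays of slide 2 had more, about 3.56-fold in replicate 2 and 3.22-fold in replicate 3. The mean over replicates, 1.03 ± 1.26, had an SD larger than itself, and without replicate 1 the mean was 1.76.

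Both channels took part in the difference between slides. The normalised log2 level of Afp in null RNA was 10.85, 11.87 and 11.73 in replicates 1, 2 and 3. In wild-type RNA it was 11.27, 10.04 and 10.04. Null levels were therefore higher on slide 2 than on slide 1 and wild-type levels were lower, and the genotypes did not overlap on either slide, although in opposite order. How many genes lacked such overlap was not counted. Ratios with the signs of Afp, below 0 in replicate 1 and above 0 in replicates 2 and 3, occurred in 3107 of 11999 tested genes (25.9%). Both genotypes had Afp above background on 8 of 8 arrays, so transcripts matching this probe were present in every kidney RNA of the study. In whole-organ RNA, a change in the number of cells that express a gene and a change in RNA per cell cannot be told apart.

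**Figure D1:**
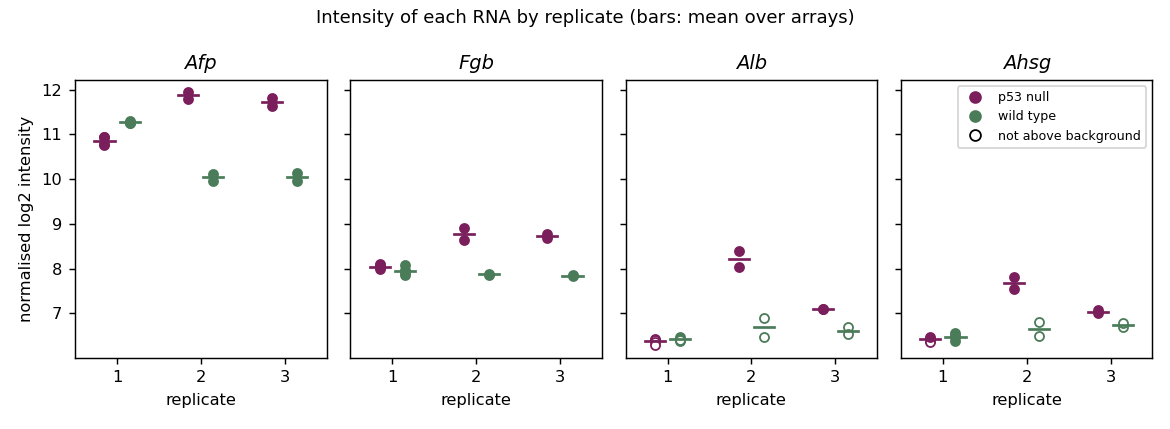
Normalised log2 intensity of Afp, Fgb, Alb and Ahsg in each channel (y axis) for replicates 1 to 3 (x axis), p53 null left of wild type; points are arrays, bars are means over arrays, and open points were not above background. Afp was brighter in wild type in replicate 1 and brighter in null in replicates 2 and 3, whereas the null levels of Alb and Ahsg were higher in replicate 2 than in replicate 3.

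The fibrinogen chain genes, whose products form the clotting precursor together, were not measured alike. Fgb, the beta chain, had ratios of 0.00, 0.12, 0.13 and 0.14 on the arrays of replicate 1. Replicate 2 gave 1.04 and 0.77, and replicate 3 gave 0.92 and 0.84. The 4 ratios of slide 2 all lay above the 4 of slide 1, and Fgb was above background in both genotypes on every array. Its level in null RNA was 8.04, 8.77 and 8.72 in the 3 replicates, while its level in wild-type RNA stayed between 7.84 and 7.95. Unlike Afp, Fgb therefore differed between slides mainly in the null channel of these normalised levels. Without scaling between arrays, its wild-type signal over local background was 192 to 359.5 on slide 1 and 51 to 124 on slide 2. Its null signal was 191 to 342.5 on slide 1 and 165.5 to 468.5 on slide 2. The channel named thus depends on the scaling.

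Fgg, the gamma chain, was above background only in the null RNA of replicate 2, on 2 of 2 arrays, and in wild-type RNA on none of 8. Its ratios there were 0.33 and 0.36, a mean of 1.27-fold in favour of null. Where wild type was not above background, its level was its own dim signal or the lowest signal of probes above background, whichever was higher. In every such fold printed here the dim wild-type signal was used. Each fold therefore equals the mean ratio of its replicate and is no lower limit, as single arrays can lie below it. Fga, the alpha chain, never exceeded background in either genotype, and its ratios ran between −0.21 and 0.14 around 0. All 3 chains were thus detectable together in none of the kidney RNAs, and Fga has no measured ratio. Without replicate 2 the mean of Fgg was −0.02, against 0.10 with it.

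Alb encodes the most abundant plasma protein. Its ratios were 0.00, 0.02, −0.10 and −0.12 on slide 1, where null RNA was above background on 0 of 4 arrays and wild-type RNA on 1 of 4. In replicate 2 they were 1.501 and 1.56, and in replicate 3 they were 0.41 and 0.57. On slide 2 null RNA was above background on 4 of 4 arrays and wild-type RNA on 0 of 4. The mean ratio of Alb, with wild type at background, was thus 2.89-fold in favour of null in replicate 2 and 1.40-fold in replicate 3. The mean over replicates was 0.66 ± 0.80, and 0.22 without replicate 2.

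Ahsg, which encodes fetuin-A, a plasma inhibitor of mineral deposition, followed Alb. Null RNA was above background on 2 of 4 arrays of slide 1 and on 4 of 4 of slide 2, and wild-type RNA on 4 of 4 arrays of slide 1 and on 0 of 4 of slide 2. The wild-type signals were dim on both slides, at 15 to 22 units over local background on slide 1 and 4.5 to 19 on slide 2. The ratios were −0.01, −0.12, −0.20 and 0.10 in replicate 1, then 1.01 and 1.04 in replicate 2, and 0.38 and 0.22 in replicate 3. The mean ratios, with wild type at background, were 2.04-fold (replicate 2) and 1.23-fold (replicate 3) in favour of null. The mean was 0.42 ± 0.55, and 0.12 without replicate 2. Over all 41174 probes, 1.22% were above background in null on all 4 arrays of slide 2 and in wild type on none, the pattern of Alb and Ahsg, whereas 0.129% had the reverse pattern. On slide 1, 0.017% of probes had null alone above background on all arrays, and none of the members did.

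Apoa1 and Apoa2 encode the main proteins of high density lipoprotein. Apoa1, spotted 10 times, was above background only in the null RNA of replicate 2, with ratios of 0.18 and 0.21, a mean of 1.14-fold. Like Fgg it belongs to the 1.75% of probes that were above background in null on both arrays of replicate 2 and in wild type on neither. Apoa2 was above background only on slide 1, on 2 of 4 arrays in null RNA and 4 of 4 in wild-type RNA. Its ratios lay between −0.09 and 0.19 over all arrays, with a mean of 0.03 ± 0.06.

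The remaining carriers showed no such pattern. Trf, the iron carrier transferrin, was above background on 8 of 8 arrays in both genotypes, with ratios from −0.12 to 0.18 and a mean of 0.04 ± 0.05. Its levels on slide 2 were 7.99 and 8.06 in null RNA, against 7.96 and 7.96 in wild-type RNA. Ttr, the carrier of thyroid hormone and, with Rbp4, of retinol, never exceeded background, and its ratios of −0.08 to 0.11 are those of a probe near background.

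**Figure D2:**
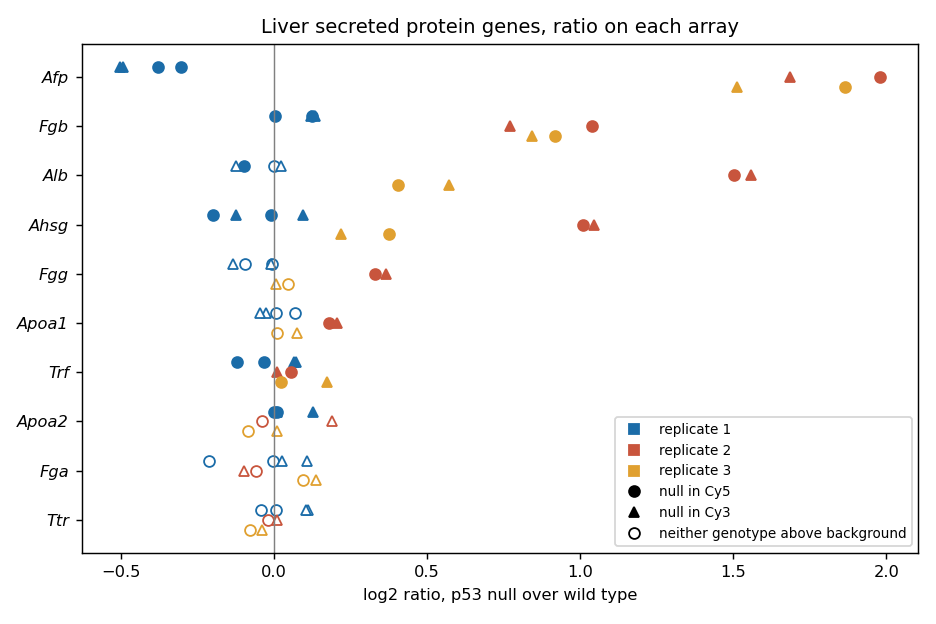
Log2 ratio of p53 null over wild type (x axis) for each of the 10 genes (y axis) on each of the 8 arrays; colours mark replicates, shapes mark the dye of the null RNA, and open points had neither genotype above background. Afp and Fgb had similar ratios in replicates 2 and 3, Alb and Ahsg had larger ratios in replicate 2, and Trf, Apoa2, Fga and Ttr stayed between −0.21 and 0.19.

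Over all 10 genes the median ratio was 0.09, with −0.01, 0.27 and 0.11 in replicates 1, 2 and 3, beside 0.00 over the 11999 tested genes, with −0.02, 0.02 and 0.03. The 4 members that passed the filter on dim probes (Afp, Fgb, Ahsg and Trf) had a median of 0.52; Ahsg passed on slide 2 only through the null RNA. Among these 4, the ratios of Fgb and no other gene were above 0 in all 3 replicates, beside 20.4% of tested genes, and those of all 4 were above 0 in replicates 2 and 3, beside 46.3%. As the genes were chosen on these ratios, nothing is read from these counts.

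The members above background in null RNA of replicate 2, apart from Trf, differed in how far replicate 3 followed. Afp and Fgb had nearly equal ratios in replicates 2 and 3, with differences of 0.14 and 0.03. Alb exceeded replicate 3 in replicate 2 by 1.04, Ahsg by 0.73 and Fgg by 0.32. For Apoa1 the difference was 0.15, close to that of Afp, with a probe at background in replicate 3. The dye orientations gave similar values, with 1.096 (null in Cy5) and 0.98 (null in Cy3) for Alb and 0.63 and 0.83 for Ahsg. The difference lay in the null channel: the null level of Alb was 1.11 higher in replicate 2 than in replicate 3 and its wild-type level 0.07 higher, and for Ahsg these differences were 0.65 and −0.08.

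Few other probes bright in the null RNA of replicate 2 had a ratio as much higher in replicate 2 than in replicate 3. Alb and Ahsg met this condition on null RNA in the replicate where they were highest. Gaps in the other direction were not counted, and they occurred, such as −0.63 for Slc34a1 and −0.61 for Serpinf2. Of 16151 named probes with null above background on both arrays of replicate 2, 10 (0.0619%) had a ratio at least 0.5 higher in replicate 2 in both dye orientations, a limit chosen after the values were seen. Among them were probes of Alb, Ahsg, Serpina6, Cma1, Dars, Bmi1, Xist and, with 2 probes, Eif2s3x. Serpina6, which encodes the corticosteroid carrier of plasma and is also made in liver, had ratios of 0.64 in replicate 2 and 0.06 in replicate 3. Xist, the RNA of the inactive X chromosome, was above background in null RNA on 2 of 2 arrays of replicate 2 and on none of replicates 1 and 3, and in wild-type RNA on all 8. The Y-linked genes Ddx3y and Eif2s3y were above background in null RNA on every array of replicates 1 and 3 and on none of replicate 2. Sex-linked transcripts of the null RNA thus moved with the difference in Alb and Ahsg between replicates 2 and 3, and their part in it was not tested.

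**Figure D3:**
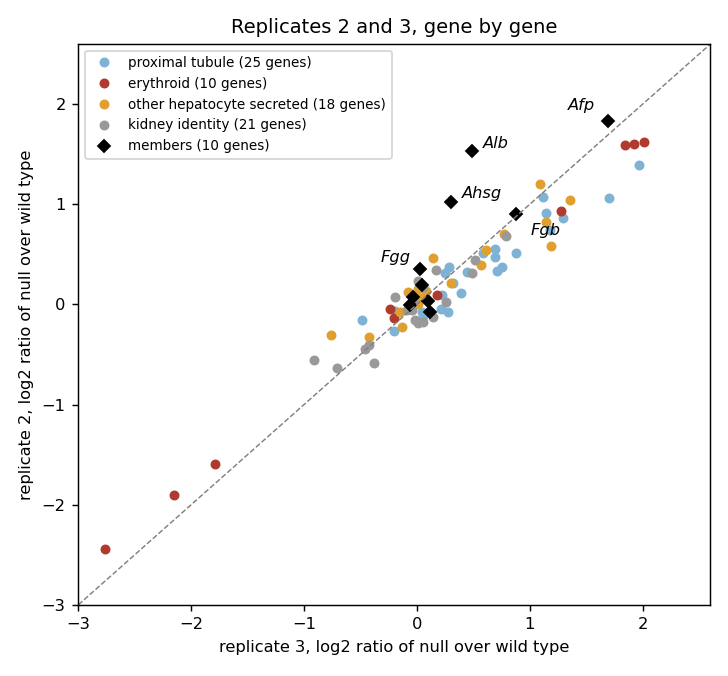
Log2 ratio of p53 null over wild type in replicate 3 (x axis) and replicate 2 (y axis) for the 10 genes (diamonds, the 5 with the highest ratios in replicate 2 named) and for tested genes of 4 lists; the dashed line marks equal ratios. Afp and Fgb lie near the line, and Alb, Ahsg and Fgg lie above it.

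Across the 8 arrays the ratios of the members correlated to different degrees. Fgb correlated with Afp at r = 0.98, and Alb and Ahsg with Afp at 0.83 and 0.82. Ahsg, Fgg and Apoa1 correlated with Alb at 0.97, 0.95 and 0.91. The arrays share slides and RNAs, so these are descriptions over 8 points that fall into a slide 1 and a slide 2 cluster. The genes most like Afp were Tbcc, Acot7, Rab5if, Phtf1, Hoxb9 and Fam98a, with r from 0.997 to 0.999; 817 of the 11736 genes compared (6.96%) reached 0.95.

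Genes for other proteins secreted by hepatocytes had mixed ratios. Of 36 on the array 18 were tested, 13 with a mean ratio above 0 and 5 below (50.8% of all tested genes were above 0), and none passed the limma threshold. Their median was 0.13, with −0.02, 0.18 and 0.11 in the 3 replicates. Serpina1d, an antitrypsin gene of a family with near-identical copies, had 0.81 ± 0.59 (0.13, 1.20 and 1.09), and Hp, the haemoglobin scavenger haptoglobin, had 0.69 ± 0.53 (0.11, 0.82 and 1.15). Serpinf2, the plasmin inhibitor, had 0.58 ± 0.61 (−0.03, 0.58 and 1.19). Apoc1 had −0.28 ± 0.17, below 0 in all 3 replicates. Hp and Serpinf2 had the larger ratio in replicate 3, the reverse of Alb and Ahsg, and 10 of the 18 genes had the larger ratio in replicate 2, beside 49.7% of all tested genes. The mean level over the 18 genes ranged over the arrays of slide 2 from 8.03 to 8.16 in null RNA, against 7.75 to 7.80 in wild-type RNA. Of the 36, 9 were above background on no array in either genotype, beside 3350 of all 17305 named genes. Among the 9 were Apob, the structural protein of liver lipoproteins, Apoc3, Apoh and the prothrombin gene F2.

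The enzymes, transporters and other intracellular genes of the hepatocyte had no common direction. Of 27 on the array 12 were tested, 6 above and 6 below 0, with a median of 0.00. The urea cycle genes Asl and Ass1 had −0.32 ± 0.02 and −0.09 ± 0.31, and the simple keratin Krt8 had −0.18 ± 0.49. Genes with all probes at background on every array in both genotypes numbered 10 of the 27, beside 3350 of all 17305 named genes. They included Cyp2e1, Cyp3a11, Cyp7a1, Otc, Mat1a and Slc10a1. Tdo2 was at background on its probe of highest intensity, and another probe exceeded background in null RNA on 0 arrays and in wild-type RNA on 1. The mean level over the 12 tested genes on slide 2 was 8.28 to 8.43 in null RNA, against 8.17 to 8.22 in wild-type RNA. No value here separates liver tissue from kidney cells as the source of the member transcripts, and that was not tested.

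Transcription factors of the liver programme, with the Afp repressors Zbtb20 and Zhx2, were mostly slightly below 0. Of 11 tested genes 3 were above and 8 below 0, with a median of −0.05 and with −0.10, −0.17 and −0.07 in the replicates. The C/EBP factor Cebpb had −0.69 ± 0.33, below 0 in all 3 replicates. Zbtb20, which silences Afp after birth, had −0.14 ± 0.09 (−0.06, −0.24 and −0.13), and Nr2f2 had −0.03 ± 0.43. Zhx2 was above background only on slide 1, on 4 of 4 arrays in each genotype. Foxa1 and Foxa3 were at background on every array, and Foxa2 was above it on 8 of 8 arrays in null and 4 of 8 in wild-type RNA. None passed the limma threshold.

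Receptors and partners of the secreted proteins, such as the megalin receptor Lrp2 that takes up filtered plasma proteins, were mostly below 0. Of 24 tested genes 4 were above and 20 below 0, with a median of −0.12. Among them were F2r, the thrombin receptor, with −0.17 ± 0.33, Plat with 0.01 ± 0.02 and Lrp2 with −0.14 ± 0.20. The mean level on slide 2 was 8.75 to 8.78 in null RNA, against 8.99 to 9.06 in wild-type RNA. Acute phase and interleukin 6 response genes also lay below 0 in 7 of 11, with a median of −0.15. Stat3 had −0.74 ± 0.29, Socs3 −0.34 ± 0.20, Cebpd −1.02 ± 0.78 and Il6st −0.44 ± 0.16, with none past the limma threshold.

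Proximal tubule genes, whose cells reabsorb filtered protein and share HNF factors with hepatocytes, had medians with the signs of Afp across the replicates. Of 25 tested genes 20 were above and 5 below 0, with medians of −0.15, 0.33 and 0.44 in replicates 1, 2 and 3 and 0.25 over them. Single genes had these signs in 17 of 25 (68%), beside 25.9% of all tested genes, and 18 of 25 were above 0 in replicates 2 and 3, beside 46.3%. Pdzk1, a scaffold of brush border transporters, had 0.54 ± 0.76 and Pdzk1ip1 0.20 ± 0.31, whereas Anpep had −0.20 ± 0.06, below 0 in all 3 replicates, and Slc7a7 0.02 ± 0.26. Their mean level on slide 2 was 8.70 to 8.99 in null RNA, against 8.33 to 8.39 in wild-type RNA, and on slide 1 it was 8.28 to 8.32 in null RNA, against 8.42 to 8.50 in wild-type RNA. Of the 35 on the array, Slc13a1, Slc13a3 and Kap were at background on every array. In 4 of 25 the ratio was larger in replicate 2 than in replicate 3, so most ran opposite to Alb and Ahsg. The part of tubule cells in the member ratios was not tested.

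Other tissues that make or carry these transcripts were set beside them. Of 11 tested yolk sac endoderm genes 7 were above and 4 below 0, with a median of 0.15 (−0.04, 0.20 and 0.18 by replicate); Ctsz had −0.50 ± 0.12, Lgmn −0.04 ± 0.09, Amn 0.33 ± 0.66 and Sox17 −0.13 ± 0.38. Their mean level on slide 2 was 9.23 to 9.32 in null RNA, against 9.001 to 9.08 in wild-type RNA. Erythroid genes, which mark blood and, at this age, the blood-forming liver, split into 5 above and 5 below 0 with a median of 0.00, and Rhag was at background on every array. The adult globins Hbb-bt and Hba-a1 had 1.07 ± 1.21 (−0.31, 1.61 and 1.92) and 0.57 ± 0.94 (−0.50, 0.93 and 1.28). The embryonic globins Hbb-y and Hba-x had −1.58 ± 1.78 (0.46, −2.44 and −2.76) and −1.53 ± 0.87 (−0.53, −1.90 and −2.15). The erythroid mean level on slide 2 was 10.66 to 10.75 in null RNA, against 10.65 to 10.79 in wild-type RNA. It overlapped between genotypes, while on slide 2 the adult globins named were above 0 and the embryonic ones below 0. Adult globins thus had opposite signs on the slides as Afp did, and the embryonic globin Hbb-y had them in reverse. Among the 10 erythroid genes tested, 5 (50%) had the signs of Afp, beside 25.9% of all tested genes. The part of blood or of developmental stage in the member ratios was not tested.

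Kidney identity genes had ratios on both sides of 0. Of 21 tested genes 10 were above and 11 below 0, with a median of −0.05, and Ret was at background on every array. Cdh16, Calb1, Cited1 and Hoxb7 had −0.14 ± 0.18, 0.16 ± 0.19, 0.24 ± 0.41 and 0.20 ± 0.15. Ratios farther from 0 occurred in both directions on slide 2. Foxd1, a stromal factor, had −0.74, Gata3 −0.67 and Osr1, an early kidney factor, −0.48. In the other direction Umod had 0.74 and Cited1 0.48. None passed the limma threshold. Their mean level on slide 2 was 9.89 to 9.91 in null RNA, against 9.91 to 9.96 in wild-type RNA.

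**Figure D4:**
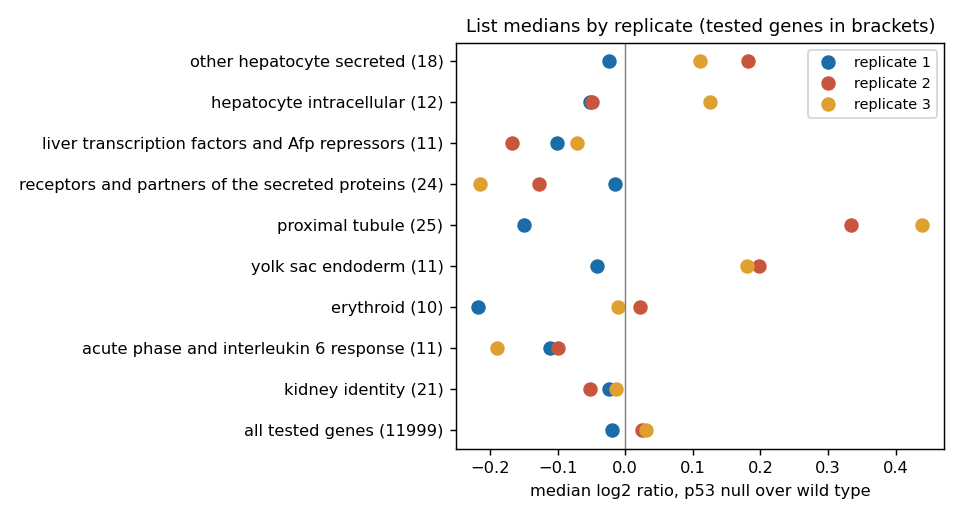
Median log2 ratio of p53 null over wild type (x axis) in each replicate for the tested genes of each list (y axis, number of genes in brackets) and for all 11999 tested genes. Proximal tubule genes had medians of −0.15, 0.33 and 0.44 in replicates 1, 2 and 3, and the medians of kidney identity genes stayed between −0.05 and −0.01.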

How the data were processed

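Kidney RNA of p53 null and wild-type embryos was labelled directly with Cy3 or Cy5, per the labels' protocols. In the deposited scanner files, intensity of spots and local background is linear and the program's ratio is the log10 of red over green. Agilent Feature Extraction is named as version 10.5.1.1 in the headers and as 6.1 in the submitters' processing notes. The deposited value table in log10 equals the program's ratio turned to null over wild type (r = 1 on each array, largest difference 4.94e-06), with column medians from −0.0024 to 0.011, so its scale and direction are known.

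Median signals were background-corrected (normexp, offset 50) and loess-normalised within arrays (limma 3.58.1, R 4.3.3); levels of single channels were also quantile-scaled between arrays on average intensity. An offset of 50 draws ratios of dim probes towards 0. Control spots were left out, outlier flags (1502 spots) were set to missing, 0 spots were saturated, and spots of a probe were averaged. Ratios are log2 null over wild type on every array, and averaging both dye orientations of a replicate cancels a dye effect. Probes were kept (20878 of 41174) where, in each replicate, 50% or more of the arrays had a genotype well above background, and 20864 had values in all 3 replicates. The test was limma's fit of 3 values against 0, two-sided, adjusted by Benjamini-Hochberg across every tested probe, with 0.05 as the threshold and 4.22 degrees of freedom; sign permutation over 3 replicates cannot go below p = 0.25. p-values measure the spread between these replicates, which includes the difference between slides, and the number of replicates limits the precision.

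Probes were named (25097) through RefSeq accessions in the GRCm38.p6 table. The genes and lists were chosen with earlier results of these data known. Genes named beside the 10 and Trp53 are, in each list, the 4 of highest mean intensity that are not members, and the 6 most like Afp over the arrays; a few of these genes go unreported here but stay in all counts and medians; others are named where a count, an absence or a range is described, after their values were seen. Each gene is represented by its brightest kept probe. Alternatives covered background correction, offset, normalisation, the filter, the value table, dye, slide and replicates.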

Additional observations from a re-analysis of the deposited data

Results flagged for a closer look

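The ratio of Afp changed sign between slides: it was below 0 on all 4 arrays of slide 1 and above 0 on all 4 arrays of slide 2, with a mean 2.18 higher on slide 2. The ratio of Fgg did the same with a mean 0.249 higher on slide 2, although its probe was above background only in the null RNA of replicate 2. In both cases the difference was not tested, and slide and replicate 1 cannot be told apart.

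Among the 4 arrays of replicate 1, a single array stood apart for Fgb (0.00 against 0.12 to 0.14), where the gap to the nearest array was 0.899 of the whole range. For Apoa2 (0.13 against 0.00 to 0.01) the gap was 0.924 of the range. Chance flags about 1 in 20 such groups, and 2 of 20 measures were found.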

How the results depend on the processing

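No probe passed the limma threshold under 10 of the 13 alternatives tried. The exceptions were leaving out replicate 1, with 11695 probes (0 to 11695 over the 3 ways of leaving out a replicate), slide as a fixed block, with 8521, and all 8 arrays with the replicate number as a block, with 1132. In that fit with the replicate block the median of the 4 members past the filter was 0.51, beside 0.52. Arrays of a replicate share their RNA, and replicates 2 and 3 may share wild-type RNA, so the 3 counts are not those of independent samples. The median stayed above 0 under all alternatives run, from 0.09 (no filter) to 1.01 (value table), and from 0.30 to 0.78 with a replicate left out. As the genes were chosen with these ratios known, nothing is read from the sign of the median. Of 127 values of single members under alternatives, 117 moved by less than the SD between replicates and 10 by more. The filter settings could not change the value of a member, so theirs are among the 117. That SD includes the difference between slides, which makes it a wide limit for genes such as Afp. Dim probes depended on the offset: Alb had 2.65 and 1.06 in replicates 2 and 3 with an offset of 10, and 5.09 and 3.44 in the value table. Ahsg had 1.96 and 0.65 with an offset of 10. For Alb and Ahsg replicate 2 exceeded replicate 3 in every setting of background, scaling, value table and dye that was run. Means near 0 took either sign: Apoa2 had −0.04 with null in Cy5 alone and Ttr 0.05 with median centring. Averaging all kept probes of a gene was not run, as each member has 1 probe.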
